A study of Mus musculus with 12 samples.

Results

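Potassium channel genes of the mouse hypothalamus were described in 12 RNA-seq libraries. The genes were taken by name: every protein-coding gene of the count table with a symbol of the form Kcn, further letters and a digit, other than Kcne2, that had at least 10 reads in total over the 12 libraries. Of 92 such symbols, 88 passed this minimum, and Kcna7, Kcnk16, Kcnj1 and Kcne1 did not, with 2, 7, 0 and 9 reads. The table holds 78334 gene IDs, of which 36164 had at least 10 reads and 17095 of those were annotated as protein coding. The 88 genes comprise 39 subunits of voltage-gated channels, 10 auxiliary subunits of these channels, 14 inward rectifiers, 13 two-pore channels and 12 genes of the calcium-activated class, to which the sodium-activated Kcnt genes and 4 BK beta subunits were counted.

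The libraries came from male C57BL/6 mice that were 8 weeks old at the start. Control mice (C, 3 libraries) stayed on standard chow, and mice with obesity (Ob, 3 libraries) received an HFD with 60% of its energy from fat for 8 weeks, both with gavage of vehicle only. The remaining groups received the same HFD and, from 16 weeks of age, daily gavage for 28 days with 2.25 mg/kg of resveratrol (Ob + RSV, 3 libraries), with 200 mg/kg of an extract of aged garlic (Ob + EAE, 2 libraries) or with 50 mg/kg of curcumin (Ob + CUR, 1 library). The sources differ on whether gavage overlapped with the 8 weeks of HFD. The study names its 3 replicates per group in C, Ob and Ob + RSV biological replicates, whereas nothing in the labels tells whether the 2 Ob + EAE libraries came from separate mice. The p-values thus measure only the spread between libraries within groups, pooled over the groups of each fit.

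Potassium channels let potassium out of the cell, which holds the resting potential near the potassium equilibrium and ends the action potential. Voltage-gated channels open upon depolarization, inward rectifiers and two-pore channels carry current at rest, and calcium-activated channels follow calcium entry during firing. In the hypothalamus, the ATP-sensitive channel formed around Kcnj11 ties the firing of glucose-sensing neurons to their energy supply, and G protein-gated channels of the Kcnj3, Kcnj6 and Kcnj9 subunits silence neurons under inhibitory transmitters and peptides.

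Total counts ran from 15655156 to 26284661 per library, and the channel genes took 0.302% to 0.433% of them. Fewest genes were detected in C replicate 2, Ob replicate 1 and Ob + RSV replicate 2 (24450 to 26123, against 28632 to 38081 in the others), and results were recomputed without these 3 libraries. Summed levels of 12 hypothalamic marker genes ran from 1057 to 3203 CPM (counts scaled by effective library size) in 11 libraries and stood at 297 in Ob + CUR. Avp (8.18 CPM), Oxt (3.92 CPM), Hcrt, Pmch, Trh and Fezf1 were lowest in that library. The list did not move as one, since Nkx2-1 (84.6 CPM) and Sim1 (23.6 CPM) were highest there. Nr5a1, a marker of the ventromedial nucleus, was at 0 in Ob + RSV replicate 3. The 2 Ob + EAE libraries resembled each other more than other libraries of a shared group: a chi-square statistic of their counts per gene was 6.63, against 22.1 to 75.9 in the 9 other within-group pairs. Ob + CUR was also close to both (12.9 and 12.0), as were C replicate 3 and Ob replicate 3 (10.1). Each value lies above 1, near which sampling noise alone would put it. All libraries were kept as separate samples, as labelled, though preparations from one animal would also exceed that level.

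Of the 88 channel genes, 74 had reads in all 12 libraries. Levels between genes were compared per length of the annotated exons, as RPKM (reads scaled by exon length in kilobases and by library size). By the mean over the 12 libraries, 21 genes stood at 10 RPKM or more, 45 between 1 and 10, 16 between 0.1 and 1 and 6 below 0.1. Voltage-gated channels made up 38.3% to 45.0% of the summed RPKM of the channel genes per library. Their auxiliary subunits made up 16.5% to 23.9%, inward rectifiers 14.0% to 26.8%, two-pore channels 9.96% to 12.1% and the calcium-activated class 5.47% to 10.7%. In percentage points the share of the inward rectifiers ranged widest of the 5.

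Among voltage-gated channels, high mean levels were those of Kcnc4 (27.7 RPKM, range 16.5 to 38.8) and Kcnc1 (22.3 RPKM, range 15.8 to 32.7), whose fast channels allow high firing rates. Their ranges overlapped. Within libraries, Kcnc4 was above Kcnc1 in all but Ob + RSV replicates 2 (21.2 against 21.7 RPKM) and 3 (21.1 against 23.4 RPKM). Kcnq3 and Kcnq5, subunits of the M-current channels that damp repetitive firing, were lower, at 5.48 and 2.97 RPKM. The axonal subunit Kcna2 stood at 14.6 RPKM and its partner Kcna1 at 2.21 RPKM. Kcnd2, which carries the transient A-type current of dendrites, had 14.9 RPKM. Among auxiliary subunits the cytoplasmic Kcnab2 led with 36.6 RPKM (range 27.5 to 47.3), followed by the calcium-binding Kcnip3 and Kcnip4, partners of the Kcnd channels, with 19.0 and 18.0 RPKM.

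The highest of all 88 genes was Kcnj10, the glial inward rectifier that clears extracellular potassium, with 56.0 RPKM and a range of 16.7 to 100.2. Kcnj16, which joins Kcnj10 in one channel, had 10.01 RPKM (range 4.38 to 16.6). Of the G protein-gated subunits, Kcnj9 (17.9 RPKM) was above Kcnj3 (7.78 RPKM) in every library, and Kcnj6 stood at only 0.76 RPKM. Kcnj11, the pore of the ATP-sensitive channel, had 7.25 RPKM and Kcnj8, the corresponding pore of vessel cells, 2.16 RPKM. Kcnj13, known from choroid plexus, had 38 reads in all, of which 13 and 12 lay in C replicates 1 and 2. The leading two-pore channels were Kcnk1 (19.0 RPKM), Kcnk3 (11.8 RPKM) and Kcnk2 (11.3 RPKM), and Kcnk13, a channel of microglia, had 3.64 RPKM. In the calcium-activated class, the sodium-activated Kcnt1 stood at 24.6 RPKM, the BK channel pore Kcnma1 at 6.13 RPKM and the SK channel Kcnn3 at 3.73 RPKM. The plot of levels by class shows that the spread over libraries was small against the spread between genes for most members.

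**Figure D1:**
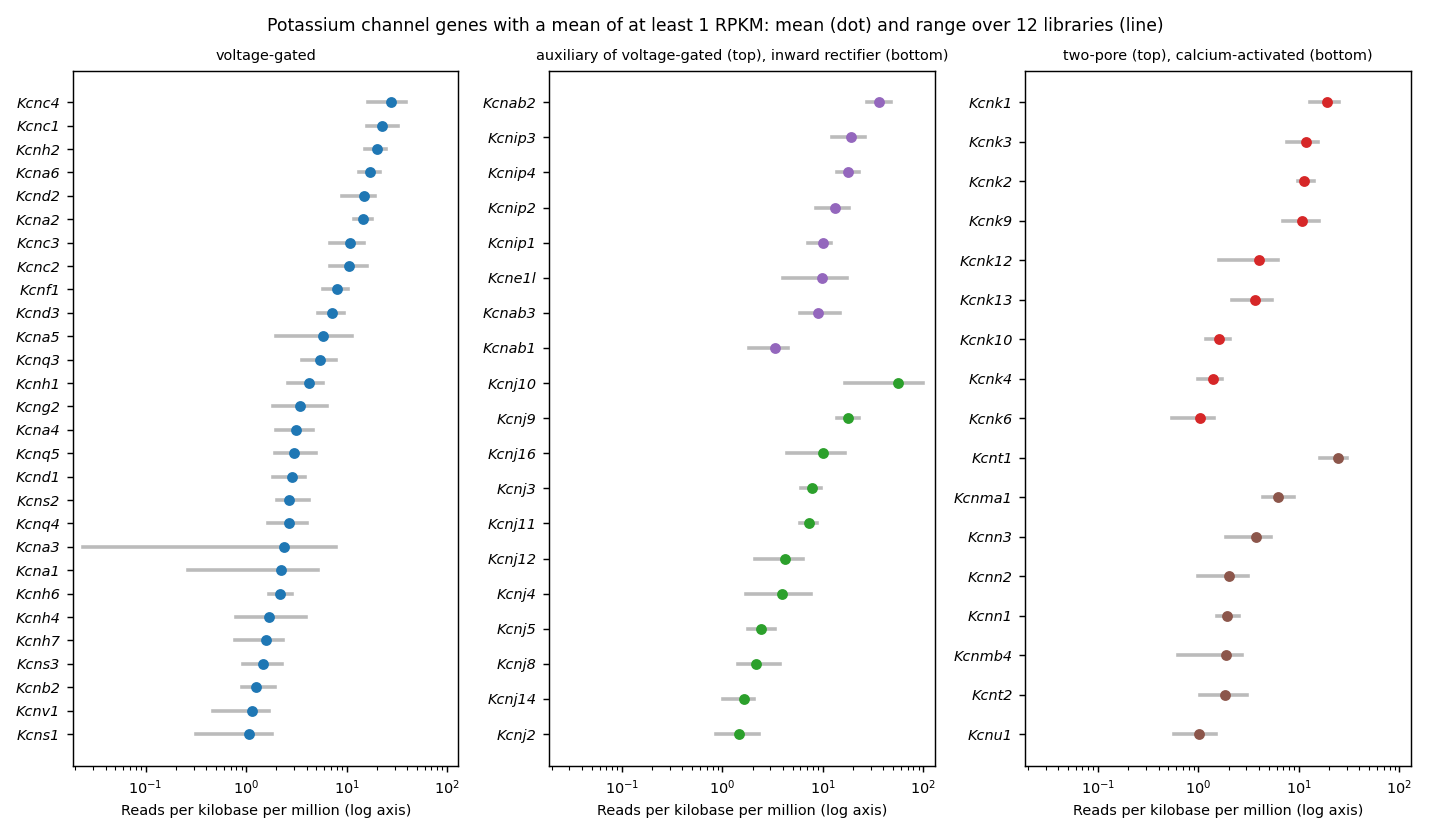
Level of potassium channel genes with a mean of at least 1 RPKM (log x axis): dots give the mean and lines the lowest and highest of the 12 libraries, with 1 panel for voltage-gated channels, 1 for auxiliary subunits (top) and inward rectifiers (bottom) and 1 for two-pore (top) and calcium-activated (bottom) channels. Kcnj10 lies farthest right at 56.0 RPKM with a long line from 16.7 to 100.2, and the longest lines belong to Kcna3 and Kcna1.

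The channel genes varied between libraries about as much as other genes. Among the 79 with a mean of at least 10 reads, the median range from the lowest to the highest library was 1.27 on the log2 scale, against 1.34 over 20578 genes with as many reads, and 26.6% had a range over 2, against 31.1%. Narrow ranges belonged to Kcnk2, a channel gated by stretch and lipids (0.54), Kcnj11 (0.57), Kcna2 (0.61) and Kcnj3 (0.65). The widest were those of Kcna3 (6.72), Kcnmb1 (5.08), the two-pore gene Kcnk7 (4.70), Kcnq1, a channel of heart and epithelia (4.24), and Kcna1 (4.21). Kcna3, a channel of neurons and immune cells, had 333 reads in Ob + EAE replicate 2 and 1 read in Ob + RSV replicate 2. The heat map shows Kcna3 and Kcna1 among its strongest colours, with many voltage-gated rows warm in both Ob + EAE libraries and cool in Ob.

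**Figure D2:**
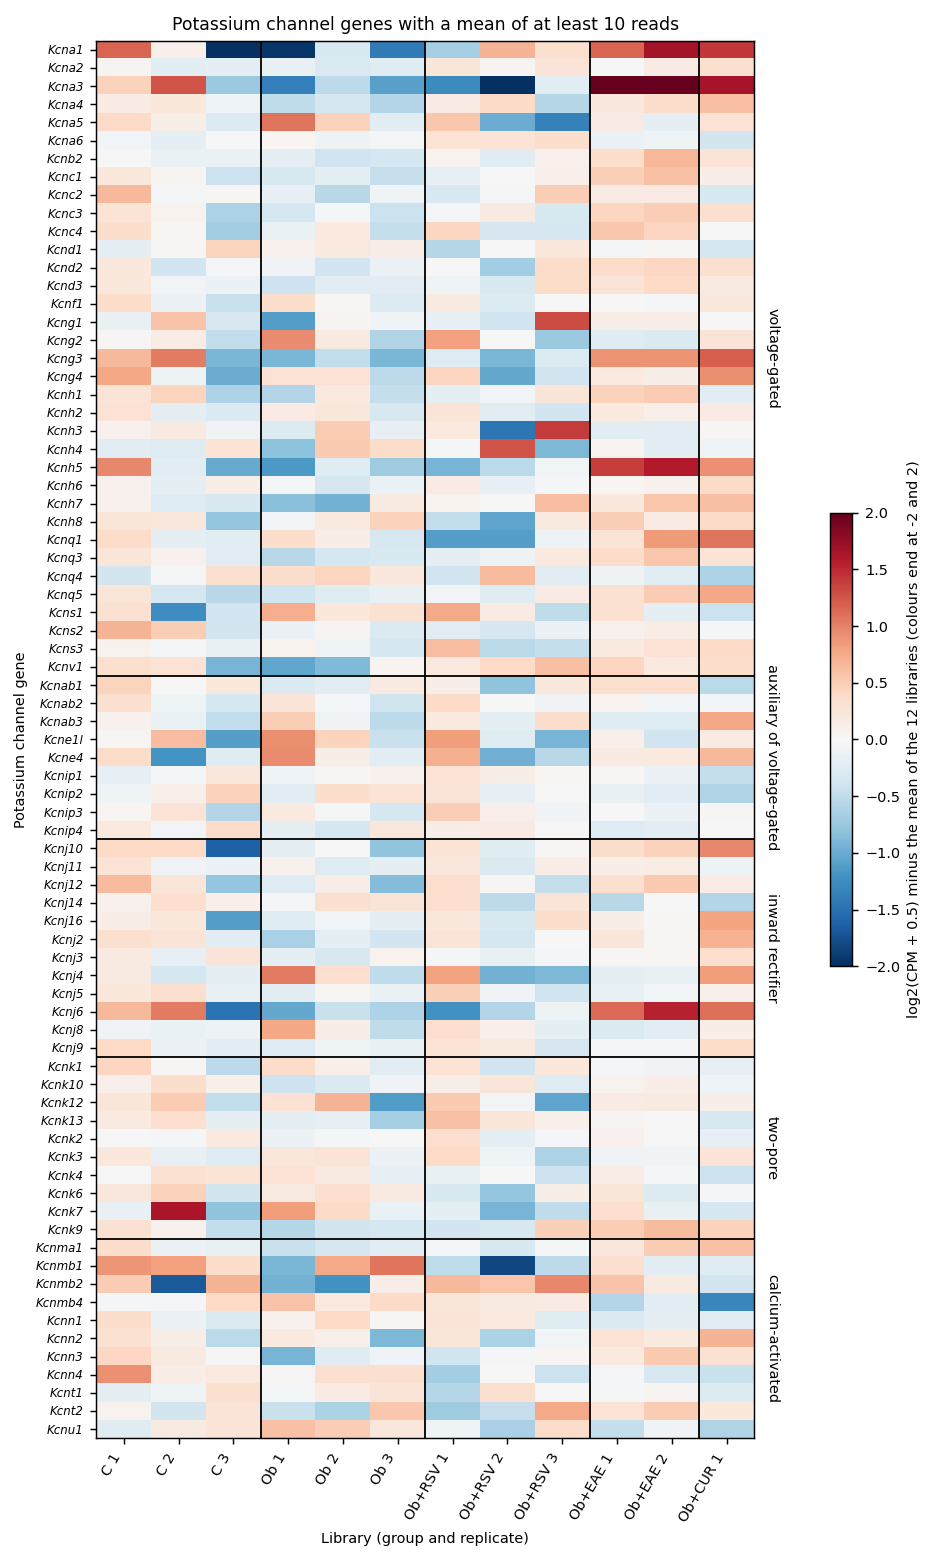
Heat map of 77 potassium channel genes with a mean of at least 10 reads (rows, by class) in the 12 libraries (columns, by group), as log2(CPM + 0.5) minus the mean of the 12 libraries, with colours that end at -2 and 2. Red in Ob + EAE and Ob + CUR and blue in Ob stand out in the rows of Kcna1, Kcna3, Kcnh5 and Kcnj6, and C replicate 3 is blue for Kcna1, Kcnj6 and Kcnj10.

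The first comparison, Ob vs. C, asked which channel genes differed after HFD. Of the 88 genes, 87 had at least 10 reads in the 9 libraries of C, Ob and Ob + RSV and were tested, and only Kcnk15 was not. With the thresholds of the study (adjusted p under 0.05 and an absolute log2FC not under 1), edgeR called 0 of the 87, where it also called 0.0% of all 33534 genes tested, and DESeq2 called 0 as well. The study itself, with an earlier DESeq2 version, reported DEGs at these thresholds in this comparison and in those of Ob + RSV. The source of this difference was not tested. At an unadjusted p under 0.05 stood 4 channel genes by either tool, each lower in Ob by edgeR, against 2.75% of all genes (1.4% lower). Fold changes lay above 0 in 34 of the 87 genes, against 48.8% of all genes, and below 0 in 53, with a median log2FC of -0.12 (-0.00 over all genes). The libraries of Ob lay below each C library in 9 of the 87 and above in 0, where this held for 4.45% and 3.38% of all genes.

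Kcna1, a low-threshold channel of axons, had 17.5, 8.13 and 1.26 CPM in C replicates 1 to 3 and 1.59, 5.98 and 2.54 CPM in Ob. C replicate 3 lay below each Ob library, so the groups overlapped. The log2FC was -1.38 (SE 0.57, adjusted p = 1 from edgeR) and became -0.43 without C replicate 1. Kcnj6 showed the same arrangement, with 7.37, 9.67 and 1.31 CPM in C and 1.97, 3.19 and 2.78 CPM in Ob, and a log2FC of -1.17 (SE 0.57) that became -0.69 without C replicate 2. For Kcna3, levels were 3.79, 6.94 and 1.35 CPM in C against 0.71, 1.65 and 0.97 CPM in Ob, with a log2FC of -1.81 (SE 0.82) and of -1.18 without C replicate 2. Again it was C replicate 3 that lay within the range of Ob.

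In contrast, the groups did not overlap in Kcnn3, whose SK channel produces the afterhyperpolarization. Its levels were 50.3, 42.9 and 38.5 CPM in C and 19.7, 31.8 and 35.8 CPM in Ob, a log2FC of -0.56 (SE 0.24) and of -0.34 without Ob replicate 1. Kcnq3 had 93.2, 83.7 and 67.5 CPM in C and 53.1, 61.5 and 63.8 CPM in Ob, a log2FC of -0.42 (SE 0.21) that became -0.15 with the trend on exon length and GC content removed, a step described further on. The other 7 genes with each Ob library below C were Kcnma1, with a log2FC of -0.35 (SE 0.21), and, named after their values were seen, Kcna4, Kcnb2, Kcnc2, Kcnd3, Kcnk5 and Kcnk10. Values of other members fixed by function were closer to 0 for their error, with Kcnj11 (log2FC -0.12, SE 0.23), Kcnj3 (-0.22, SE 0.22), Kcnj10 (-0.24, SE 0.31) and Kcnc1 (-0.26, SE 0.21). The adjusted p from edgeR was 1 for each channel gene. The count of 4 dropped to 0 when Ob replicate 1 was left out and to 1 when C replicate 1 was. Leaving out Ob replicate 3 gave 9 genes and C replicate 3 gave 14, while leaving out the 3 libraries with fewest genes detected gave 0. Over all genes, 453 were higher and 469 lower at an unadjusted p under 0.05 by edgeR in the main fit. These became 93 and 158 without Ob replicate 1, 358 and 184 without C replicate 1, and 946 and 792 without Ob replicate 3. They were 960 and 1095 without C replicate 3, and 112 and 130 without those 3 libraries. In the same comparison 3 of 7 thalamic markers were lower at an unadjusted p under 0.05 (summed level 137 to 343 CPM in C and 83.6 to 198 CPM in Ob, none at 0), and 2 of 7 cortical and hippocampal markers, and their part in these values was not tested. Because the tissue was sequenced whole, fewer cells of a type and less RNA per cell cannot be told apart in any of these values.

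The comparison of Ob + RSV with Ob asked which channel genes differed with RSV in obesity. It shares the Ob libraries with the comparison above, with the sign turned, so that fold changes of both are not independent. Here too edgeR called 0 of 87 channel genes (0.0% of all genes), as did DESeq2. An unadjusted p under 0.05 was reached by 8 genes by either tool, 6 higher and 2 lower in Ob + RSV, against 1.66% and 1.5% of all genes (3.16% in both directions). Each Ob + RSV library lay above Ob in 8 genes and below in 3, against 3.54% and 3.59% of all genes, the log2FC lay above 0 in 53 (49.6% of all genes), and its median was 0.11 (0.00 over all genes).

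Kcna5, a delayed rectifier better known from heart and vessel muscle, had 32.6, 21.1 and 12.9 CPM in Ob and 22.5, 7.38 and 5.65 CPM in Ob + RSV, a log2FC of -0.95 (SE 0.37). The groups overlapped, and the value was -0.56 without Ob replicate 1 and -1.76 without Ob + RSV replicate 1. Kcnh7, a channel of the ERG family, had 12.6, 11.7 and 26.0 CPM in Ob and 24.2, 23.2 and 35.6 CPM in Ob + RSV, a log2FC of 0.69 (SE 0.29), with Ob replicate 3 inside the range of Ob + RSV. It was 1.18 without Ob replicate 3 and 0.43 without Ob + RSV replicate 3. Kcna1 had 4.56, 12.4 and 9.499 CPM in Ob + RSV, a log2FC of 1.37 (SE 0.57) against Ob, in which Ob replicate 2 lay above Ob + RSV replicate 1, and of 2.08 without Ob replicate 2 and 0.69 without the 3 libraries with fewest genes detected. Kcnmb1, the BK beta subunit of smooth muscle, had 8, 44 and 53 reads in Ob and 18, 0 and 13 in Ob + RSV, a log2FC of -2.09 (SE 0.91) and of -1.48 without Ob + RSV replicate 2. Ob replicate 1 was the library that overlapped. The level of Kcnk13 was 9.62, 9.85 and 6.77 CPM in Ob and 16.8, 13.2 and 11.9 CPM in Ob + RSV, a log2FC of 0.64 (SE 0.29), with no overlap between the groups. The other 3 genes at that p, named after their values were seen, were Kcnv1 (1.02, SE 0.46), Kcnmb2 (1.60, SE 0.75) and Kcne3, whose 34 reads over the 12 libraries lay almost wholly in Ob + RSV replicate 2 (30 reads).

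Of the abundant channels, Kcna2, Kcnc1 and Kcnq3 lay higher in each Ob + RSV library than in any Ob library, but with log2FC of only 0.27 to 0.38 and no call. Kcna2, for instance, had 155.9, 140.2 and 145.8 CPM in Ob and 203, 178 and 206 CPM in Ob + RSV, a log2FC of 0.38 (SE 0.20). For the ATP-sensitive and G protein-gated pores, log2FC were 0.12 (SE 0.23) for Kcnj11, 0.03 (SE 0.22) for Kcnj3, 0.11 (SE 0.57) for Kcnj6 and 0.19 (SE 0.22) for Kcnj9. The count of 8 became 2 without Ob replicate 1, 3 without Ob replicate 2 and 4 without the 3 libraries with fewest genes detected. Over all genes, 555 were higher and 504 lower at an unadjusted p under 0.05 in the main fit. In the same order these became 186 and 306, 401 and 372, and 117 and 395. The adjusted p from edgeR was 1 for each channel gene. Across 79 channel genes the log2FC went with exon length (Spearman's rho 0.44, against 0.19 over 18879 genes). With the trend on exon length and GC content removed, a step described further on, the same 8 genes stood at an unadjusted p under 0.05 by edgeR. The median log2FC of the channel genes was then 0.13. Beyond this step the part of length in these values was not tested. Cortical and hippocampal markers, the list that Kcnv1 is related to further on, had a log2FC above 0 in 7 of 7 (median 1.08, 1 at an unadjusted p under 0.05), with summed levels of 29.5 to 40.7 CPM in Ob and 35.3 to 72.7 CPM in Ob + RSV. Neuronal markers lay above 0 in 6 of 6 (0 at that p), and 2 of 5 ependymal markers were lower at that p. The part of these markers was not tested.

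Ob + RSV vs. C, which asked how far the treated mice differed from lean ones, gave 0 calls among 87 channel genes (0.0% of all genes) by edgeR and by DESeq2, and 2 genes at an unadjusted p under 0.05 (3 by DESeq2), against 2.87% of all genes. These 2, both lower in Ob + RSV, were Kcnmb1 (log2FC -2.27, SE 0.91, with 63, 46 and 38 reads in C) and Kcna3 (log2FC -1.997, SE 0.82, with 0.79, 0.045 and 2.15 CPM in Ob + RSV). In Kcna3 the groups overlapped, since C replicate 3 had 1.35 CPM. Without C replicate 2 the fold change of Kcna3 was -1.36, and without Ob + RSV replicate 2, where it had 1 read, -1.43. Without Ob + RSV replicate 3 it was -3.28. The other leading genes were Kcns2, a subunit that is electrically silent on its own (-0.56, SE 0.29), Kcna6 (0.38 in the same fit) and Kcnj6 (-1.06, SE 0.56). Kcna6, an axonal relative of Kcna1, was the 1 gene with each Ob + RSV library above C (124.1, 121.7 and 128.7 against 97.4, 88.2 and 101.6 CPM), where 2.12% of all genes were, and 3 genes lay below, where 3.46% of all genes did. The log2FC lay above 0 in 36 of the 87 genes, against 49.2% of all genes. The count of 2 became 1 without C replicate 2, 5 without C replicate 3 and 5 without Ob + RSV replicate 3. Over all genes, 494 were higher and 468 lower at an unadjusted p under 0.05 in the main fit. In the same order these became 249 and 285, 463 and 674, and 669 and 1045. Thalamic markers were lower in 5 of 7 and ependymal markers in 3 of 5 at that p, and their part in these values was not tested.

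Ob + EAE vs. Ob, a comparison of aged garlic extract with vehicle in obesity, was fitted over all 12 libraries, and all 88 channel genes were tested among 36164. It shares the Ob libraries with 2 of the comparisons above. Here 4 channel genes passed the thresholds and rose: Kcna3, Kcna1, Kcnj6 and Kcnh5. Calls in either direction made up 1.84% of all genes, and those with higher levels 0.763%. At an adjusted p under 0.05 without the minimum on log2FC there were 7 channel genes (2.38% of all genes, 1.12% higher), the further 3 being Kcnq3, Kcnc1 and Kcnk9. An unadjusted p under 0.05 was reached by 23, of which 22 were higher in Ob + EAE, against 13.4% of all genes (6.87% higher and 6.48% lower). Both Ob + EAE libraries lay above each Ob library in 41 channel genes and below in 6, against 24.3% and 14.5% of all genes. The log2FC lay above 0 in 53 channel genes, against 52.0% of all genes, with a median of 0.21, against 0.05 over all genes.

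Kcna3 had 12.4 and 14.95 CPM in Ob + EAE, against 0.71, 1.65 and 0.97 CPM in Ob. The lowest Ob + EAE library thus lay far above the highest of Ob, and also above the C libraries. The log2FC was 3.60 (SE 0.70, adjusted p = 0.00853 from edgeR). Kcna1 had 17.5 and 25.01 CPM in Ob + EAE, against 1.59 to 5.98 CPM in Ob, a log2FC of 2.64 (SE 0.58, adjusted p = 0.0156 from edgeR), but C replicate 1 stood at the level of the lower Ob + EAE library. Kcnj6, the G protein-gated subunit named above, had 10.5 and 14.0 CPM in Ob + EAE against 1.97 to 3.19 CPM in Ob, a log2FC of 2.19 (SE 0.53, adjusted p = 0.0242 from edgeR). Kcnh5, a channel of the EAG family, had 6.52 and 7.59 CPM in Ob + EAE and 0.71, 1.77 and 1.15 CPM in Ob, a log2FC of 2.52 (SE 0.64, adjusted p = 0.0316 from edgeR). In the plot of single libraries these 4 genes also stood high in the Ob + CUR library, at 9.22 CPM for Kcna3, 20.8 for Kcna1, 10.3 for Kcnj6 and 4.55 for Kcnh5.

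**Figure D3:**
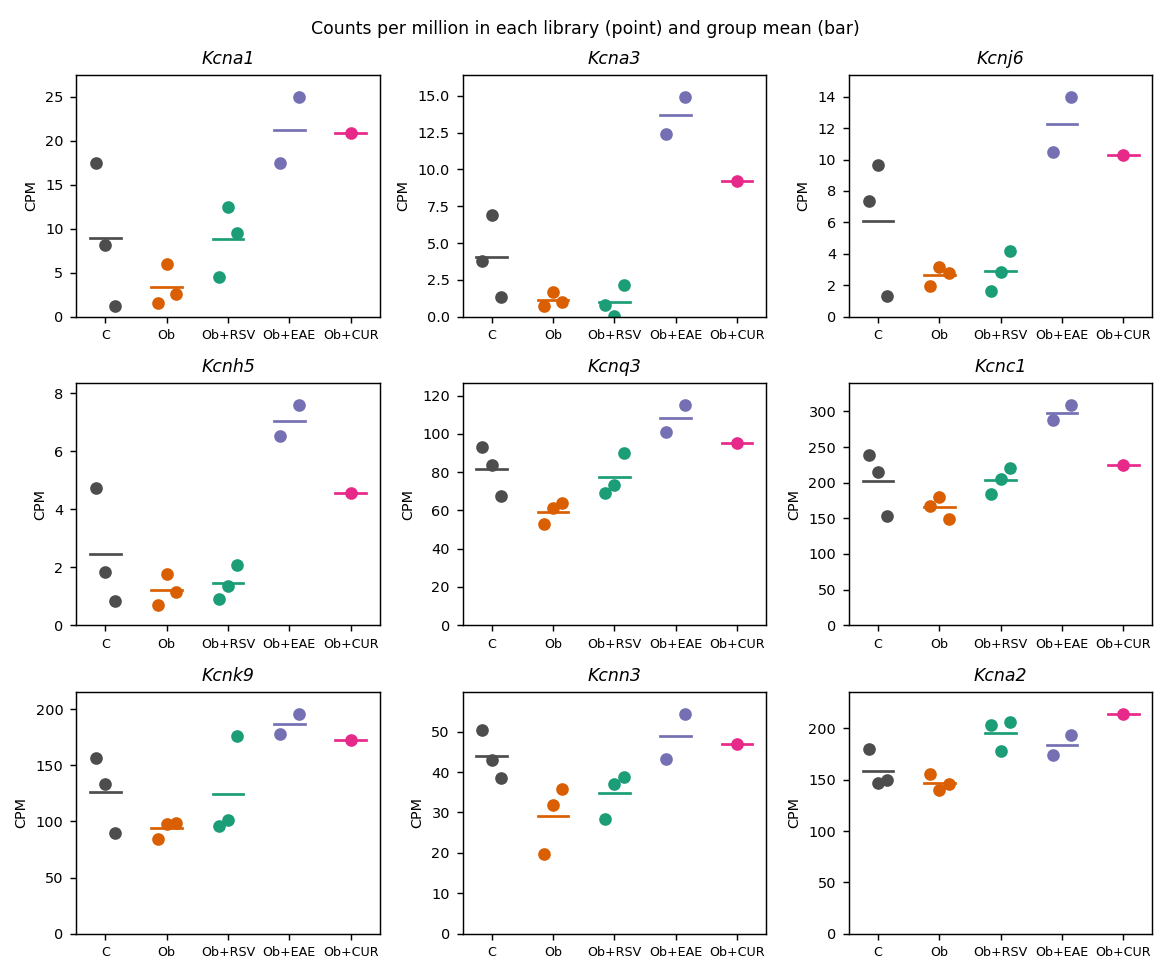
CPM (y axis, from 0) of 9 potassium channel genes in each library (points) by group, with the group mean as a bar. In Kcna1, Kcna3, Kcnj6 and Kcnh5 both Ob + EAE points lie above every Ob point, Kcnq3, Kcnc1 and Kcnk9 show smaller gaps, and Kcnn3 and Kcna2 are shown for the comparisons of Ob with C and of Ob + RSV with Ob.

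The 3 genes below the log2FC minimum are abundant. Kcnq3 had 101.2 and 115.1 CPM in Ob + EAE against 53.1 to 63.8 CPM in Ob, a log2FC of 0.84 (SE 0.21, adjusted p = 0.0307 from edgeR). The level of Kcnc1 was 288 and 309 CPM, against 149.4 to 179.2 CPM in Ob, a log2FC of 0.83 (SE 0.21, adjusted p = 0.0335 from edgeR). Kcnk9, a pH-sensitive two-pore channel named after its values were seen, had 178 and 196 CPM against 84.5 to 99.0 CPM, a log2FC of 0.97 (SE 0.25, adjusted p = 0.0338 from edgeR). None of the 3 overlapped with Ob.

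By class, genes at an unadjusted p under 0.05 and higher in Ob + EAE numbered 17 of 39 voltage-gated channels, 2 of 14 inward rectifiers, 1 of 13 two-pore channels, 2 of 12 in the calcium-activated class and 0 of 10 auxiliary subunits, against 6.87% of all genes. Within the voltage-gated class these included 3 of 4 Kcnc genes, 2 of 3 Kcnd genes, 3 of 7 Kcna genes and 3 of 8 Kcnh genes, against 1 of 10 silent subunits. Whether the classes differ from each other was not tested. Members of the naming rule among them were Kcnd2 (log2FC 0.56, SE 0.25), Kcnq5 (0.66, SE 0.26), Kcnj10 (0.69, SE 0.33), Kcnma1 (0.68, SE 0.21) and Kcnn3 (0.73, SE 0.25), each with an adjusted p from edgeR between 0.0889 and 0.369. The 1 gene lower at that p, named after its values were seen, was Kcnmb4, the neuronal BK beta subunit, with a log2FC of -0.87 (SE 0.39). Values of the ATP-sensitive pore Kcnj11 were 0.23 (SE 0.24), of Kcnj3 0.15 (SE 0.22), of Kcnj9 0.12 (SE 0.22), of Kcna2 0.30 (SE 0.20), of Kcnk13 0.34 (SE 0.30) and of Kcnj8 -0.53 (SE 0.43), none past the test.

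**Figure D4:**
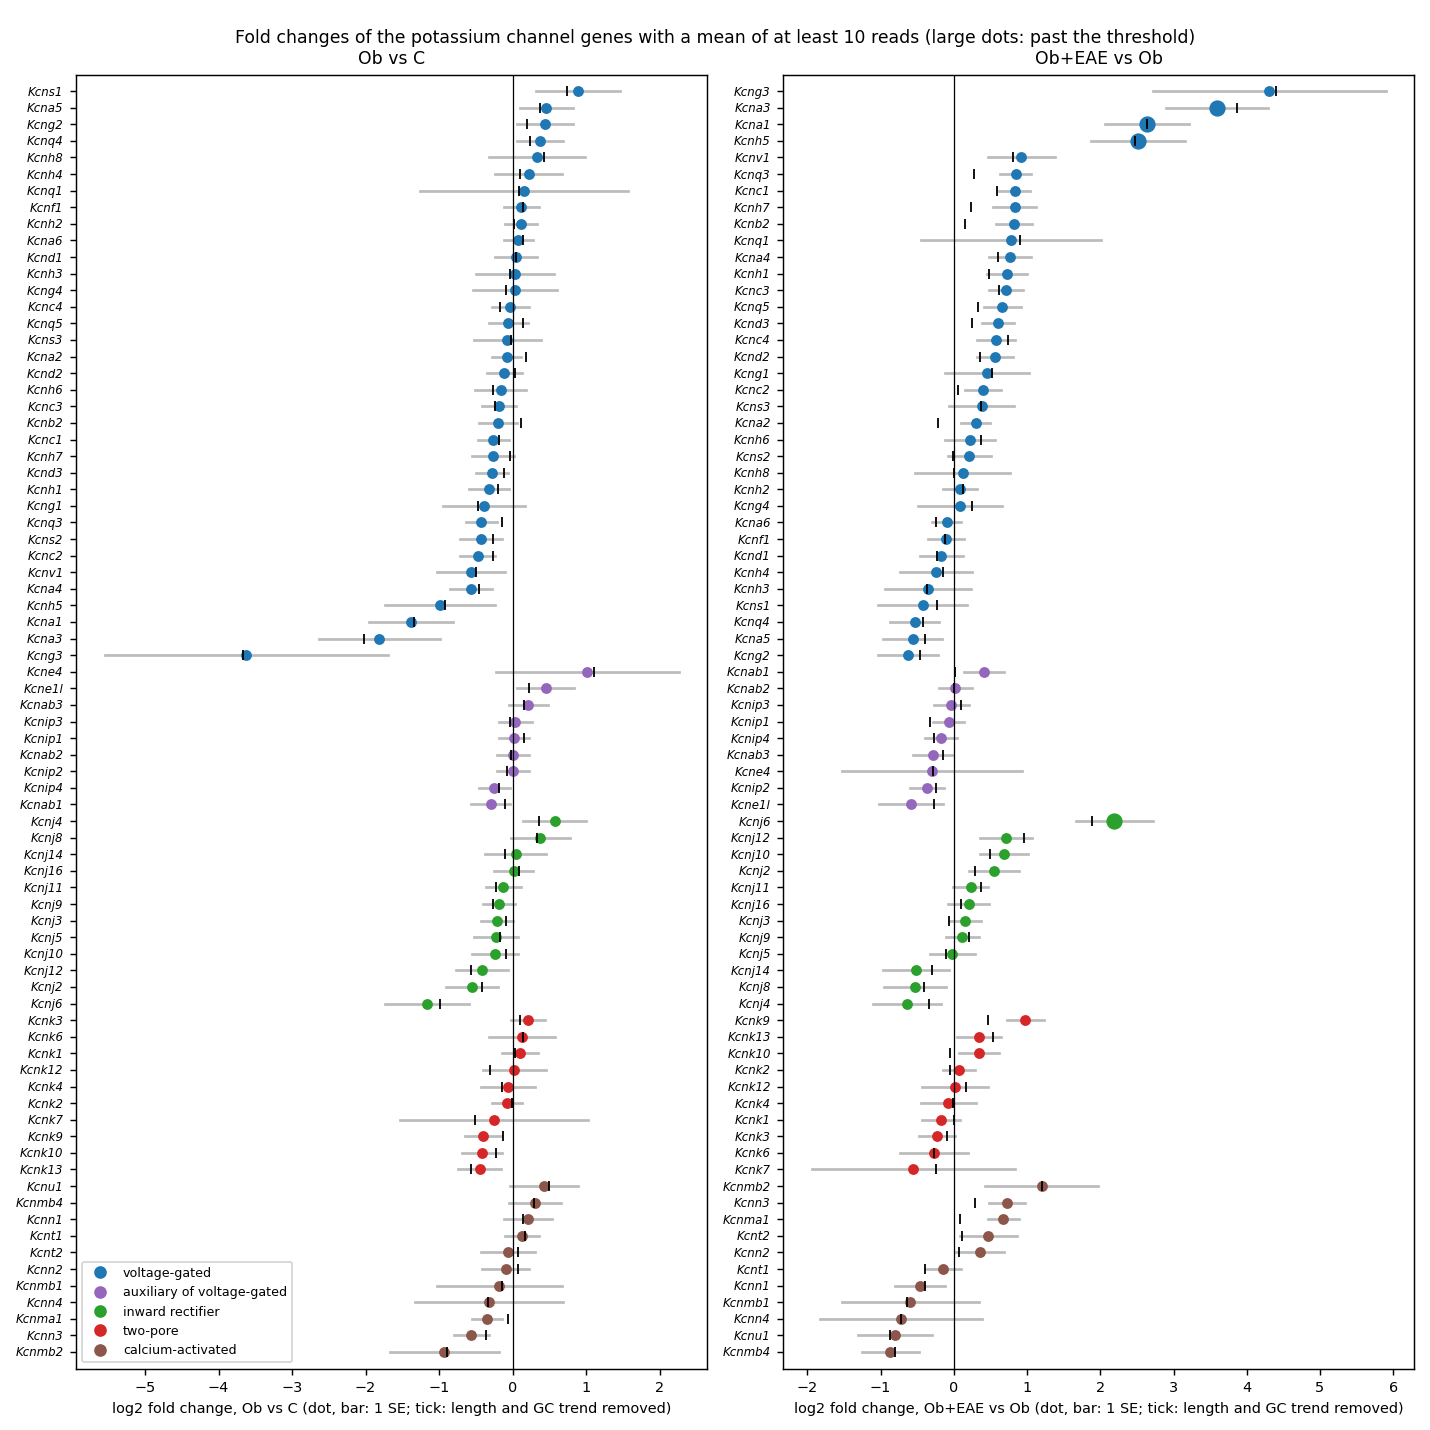
Log2 fold changes (x axes) of 77 potassium channel genes with a mean of at least 10 reads, by class, in Ob vs. C and Ob + EAE vs. Ob, with bars of 1 SE, large dots for genes past the threshold and black ticks for the value after the trend on exon length and GC content was removed. Both comparisons share the Ob libraries, most dots of the voltage-gated class lie left of 0 in the former and right of 0 in the latter, and many ticks in Ob + EAE vs. Ob lie closer to 0 than their dots.

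Some settings ended the calls while the fold changes kept their direction. Without Ob replicate 1 there were 0 calls among the channel genes (18 over all genes, from 665), and without Ob + EAE replicate 2 there were also 0 (19 over all genes). In that fit the spread came from the other groups, and the lone Ob + EAE library was assumed to vary like them, which the fit cannot check. Calls were also 0 without the 3 libraries with fewest genes detected and with the filterByExpr filter on low counts. Over the 15 settings tried, the log2FC ran from 3.36 to 4.04 for Kcna3, from 2.30 to 3.39 for Kcna1, from 1.89 to 2.41 for Kcnj6 and from 2.25 to 2.94 for Kcnh5. Their adjusted p-values over these settings reached 0.146, 0.328, 0.388 and 0.458 at most. The count of 23 genes became 10 in the fit without Ob + EAE replicate 2, under the same assumption.

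Transcript length moved with the same contrast. The log2 level of a gene against its mean over libraries was related to exon length with a correlation across genes of 0.27 and 0.33 in the Ob + EAE libraries and 0.28 in Ob + CUR, and of -0.27, -0.13 and -0.13 in Ob. Across 79 channel genes, Spearman's rho between log2FC and exon length was 0.47 in Ob + EAE vs. Ob, against 0.40 over 18879 genes with as many reads, and -0.39 in Ob vs. C, against -0.28. Genes are not independent replicates, and the points share their libraries. With the trend on length and GC content removed from each library, a step added after the data were seen, 0 channel genes were called (0.224% of all genes) and 11 stood at an unadjusted p under 0.05, 10 of them higher and 1 lower, against 13.8% of all genes (4.78% higher and 9.01% lower). In Ob vs. C, Ob + RSV vs. Ob and Ob + RSV vs. C the same step left 0 calls by edgeR, and 3, 8 and 5 channel genes at an unadjusted p under 0.05, against 2.31%, 2.77% and 2.91% of all genes. In Ob vs. C, Kcna1 and Kcna3 stayed at that p, Kcnn3 and Kcnj6 did not, and Kcnk13 came in. The 8 of Ob + RSV vs. Ob were the same genes as before. In Ob + RSV vs. C, Kcnmb1 and Kcna3 stayed, Kcna2, Kcna6 and Kcnh7 came in, and 3 of the 5 were higher. In Ob + EAE vs. Ob, the 4 called genes stayed among the 11, with log2FC of 3.87 for Kcna3, 2.64 for Kcna1, 2.48 for Kcnh5 and 1.89 for Kcnj6, while Kcnq3, Kcnq5, Kcnd2, Kcnn3 and Kcnma1 were no longer among them, with values of 0.085 to 0.35. The median log2FC of the channel genes was then 0.06, against -0.03 over all genes.

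Cell type markers moved with the contrast too. The summed level of 7 vessel markers was 359 and 345 CPM in Ob + EAE and 204 to 242 CPM in Ob, with 5 of 7 higher at an unadjusted p under 0.05, 2 of them called (Flt1, log2FC 1.77, and Pecam1, 1.33), and no marker at 0. Summed levels of 12 hypothalamic markers were 1273 and 1057 CPM in Ob + EAE and 1385 to 3203 CPM in Ob, with 3 of 12 lower at that p, among them the called Avp (log2FC -1.84). These markers did not move as one, since the log2FC lay above 0 in 5 of 12. Sim1, for instance, had 15.6 and 17.3 CPM in Ob + EAE against 8.42 to 13.0 CPM in Ob. For 5 ependymal markers summed levels were 30.8 and 25.2 CPM against 29.0 to 104.7 CPM, with 4 of 5 lower. Neuronal markers (6 genes) summed to 3328 and 3442 CPM in Ob + EAE and to 2475 to 2928 CPM in Ob, with 1 of 6 higher. This list did not move as one either, with a log2FC above 0 in 4 of 6. Map2 had 1141 and 1349 CPM in Ob + EAE against 498 to 757 CPM in Ob, whereas Stmn2 had 353 and 305 CPM against 393 to 488 CPM. For 6 markers of microglia, a cell type that also uses Kcna3, summed levels were 175 and 156 CPM in Ob + EAE and 147 to 178 CPM in Ob. The log2FC lay above 0 in 3 of the 6, and 2 were lower at that p, with Aif1 called (log2FC -1.92). The part of these shifts in the levels of the channel genes was not tested.

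Promoters of 3 of the 4 called genes are shown because these genes rose together, as the 250 bases before the annotated start in RefSeq (GRCm38.p6, another build than that of the counts), written 5′ to 3′ on the strand of the gene, with GC boxes (GGGCGG, or CCGCCC as its other strand) in capitals. Kcnj6 has separate starts, and both are given. Kcna1 is not shown.
Kcna3 (chr3:107035912-107036161, plus strand): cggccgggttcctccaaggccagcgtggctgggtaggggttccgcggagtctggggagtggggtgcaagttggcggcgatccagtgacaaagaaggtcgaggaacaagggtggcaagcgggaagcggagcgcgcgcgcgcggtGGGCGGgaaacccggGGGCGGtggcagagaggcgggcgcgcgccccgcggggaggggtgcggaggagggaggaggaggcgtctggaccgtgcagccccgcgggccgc
Kcnh5 (chr12:75177333-75177582, minus strand): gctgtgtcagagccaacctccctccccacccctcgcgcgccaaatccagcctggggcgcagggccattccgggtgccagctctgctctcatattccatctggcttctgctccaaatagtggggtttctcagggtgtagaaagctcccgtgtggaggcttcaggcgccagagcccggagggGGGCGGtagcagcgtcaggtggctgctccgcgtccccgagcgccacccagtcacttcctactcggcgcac
Kcnj6 distal start (chr16:94997697-94997946, minus strand): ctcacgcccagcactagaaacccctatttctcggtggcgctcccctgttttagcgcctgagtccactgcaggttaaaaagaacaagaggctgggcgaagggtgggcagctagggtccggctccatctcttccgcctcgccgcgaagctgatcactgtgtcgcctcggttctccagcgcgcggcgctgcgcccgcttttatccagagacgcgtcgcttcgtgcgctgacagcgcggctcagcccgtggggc
Kcnj6 internal start (chr16:94856691-94856940, minus strand): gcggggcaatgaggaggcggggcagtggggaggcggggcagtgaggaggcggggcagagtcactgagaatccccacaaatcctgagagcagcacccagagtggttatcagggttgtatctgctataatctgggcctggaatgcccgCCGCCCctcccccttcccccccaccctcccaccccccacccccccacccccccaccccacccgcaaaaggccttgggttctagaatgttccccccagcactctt
Kcna3 had 2 GC boxes in a stretch of 74.4% GC with 31 CpG dinucleotides, Kcnh5 had 1 with 16 CpG, and Kcnj6 had 0 with 26 CpG at its distal start and 1 with 7 CpG at its internal start. Of the 88 channel genes, 64 matched the RefSeq table, with 88 starts in all. A GC box lay in 46.6% of these starts, against 32.7% of the 32851 starts of all genes in the table. The TATA box (TATAAA, or TTTATA) lay in 3.41% against 12.4%, and the full cAMP response element (TGACGTCA, which reads the same on both strands) in 0 of 88 against 1.55%. Median GC content was 58.8% against 52.4%. These matches describe letters in a fixed window, not bound sites.

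The single Ob + CUR library has no replicate, so no test was made. Of the 88 channel genes, 40 lay above each of the 3 Ob libraries and 18 below, where 32.4% and 19.3% of all genes did. Against all 11 other libraries, 14 channel genes were higher (7.76% of all genes) and 7 lower (3.51%). Kcnj10 was at 542 CPM, against 90.3 to 381 CPM in the other 11, and its partner Kcnj16 at 65.5 CPM, against 17.3 to 48.5 CPM. Kcnma1 (152.5 CPM), Kcnq5 (38.0 CPM), Kcna2 (214 CPM) and Kcnj3 (50.2 CPM) were likewise the highest of the 12. Kcnip2 (29.6 CPM) and Kcna6 (78.4 CPM) were the lowest, as was, named after its values were seen, Kcnmb4 (2.09 CPM). In this library the sum of the inward rectifiers reached 850 CPM, against 286 to 651 CPM elsewhere. It is the library with the lowest sum of hypothalamic markers and the highest sum of vessel markers (392 CPM), and the part of this difference in its channel levels was not tested.

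Several channels are used as markers of cell types, and their levels were related to other markers of these types across the 12 libraries, with 6 relations tested. Kcnj10 followed 5 astrocyte markers with Pearson's r = 0.91 (permutation p = 0.00019, adjusted 0.00114) and Spearman's rho = 0.69 (permutation p = 0.0173, adjusted 0.0518). The lowest astrocyte markers and the lowest Kcnj10 were both found in C replicate 3 (338 and 90.3 CPM) and then Ob replicate 3 (606 and 161 CPM). Without these 2 libraries r was 0.57 (permutation p = 0.08) and rho was 0.45 (permutation p = 0.19). As deviations from the group means in the 11 libraries other than Ob + CUR, r was 0.99 (permutation p = 1e-05, the smallest that 100000 permutations can give). Spearman's rho of these deviations was 0.96 (permutation p = 2e-05). The permutations moved centred values freely between groups, so these p-values are approximate. C replicate 3 and Ob replicate 3 are among these 11 libraries.

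Kcnj13 followed 8 choroid plexus markers with r = 0.77 (permutation p = 0.0039, adjusted 0.0117) and rho = 0.73 (permutation p = 0.01, adjusted 0.0518). It had reads in 7 of 12 libraries only, and without C replicate 2 and Ob replicate 1, the libraries farthest from the median of the markers, r was 0.61 (permutation p = 0.0593). By adjusted permutation p under 0.05, Kcnj10 and Kcnj13 thus passed with r but not with rho. The other 4 relations passed with neither. These were Kcnv1 with cortical and hippocampal markers (r = 0.48, rho = 0.55, permutation p = 0.111 and 0.0711), Kcnk13 with microglia (r = 0.19, rho = 0.37, permutation p = 0.557 and 0.239), Kcnj8 with vessels (r = -0.21, rho = -0.15, permutation p = 0.521 and 0.649) and Kcnip2 with striatum (r = 0.11, rho = 0.03, permutation p = 0.727 and 0.937). The plot of Kcnj10 and Kcnj13 against their marker lists shows the single low point of C replicate 3 and the libraries without Kcnj13 reads along the bottom.

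**Figure D5:**
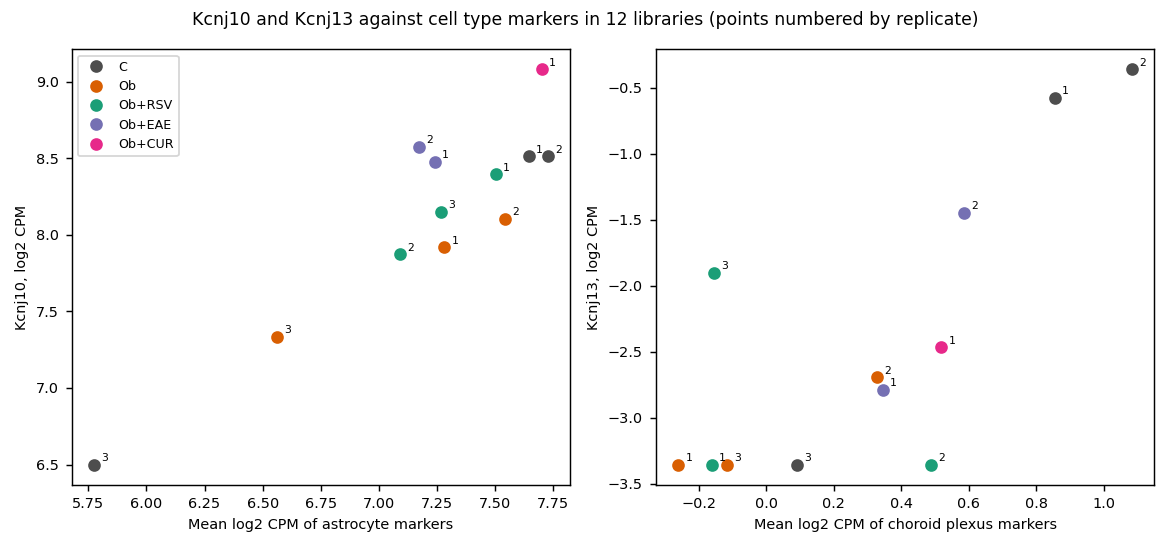
Log2 CPM of Kcnj10 (left) and Kcnj13 (right) on the y axes against the mean log2 CPM of 5 astrocyte and 8 choroid plexus markers on the x axes, with 1 point per library, coloured by group and numbered by replicate. C replicate 3 lies lowest for Kcnj10 and astrocyte markers, and C replicates 1 and 2 lie highest for Kcnj13 and choroid plexus markers.

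Proteins that work with the channel genes were followed in a fixed list. Of 18 partner genes, such as the sulfonylurea receptors of the ATP-sensitive channel and the scaffolds of axonal Kcna channels, 17 were tested and 0 were called by edgeR in any of the 4 comparisons. At an unadjusted p under 0.05 there were 0 in Ob vs. C, Ob + RSV vs. Ob and Ob + RSV vs. C, and 4 of 17, all higher, in Ob + EAE vs. Ob: Cntnap1, Cntnap2, Adam23 and Dlg2, which hold Kcna channels at axonal sites, with log2FC of 0.79, 0.60, 0.56 and 0.75. Over all genes tested, 6.87% were higher at that p and 0.763% were called higher. Of 14 sodium channel genes, 5 were higher at that p in Ob + EAE, 3 of them called (Scn2a, log2FC 1.21, Scn1a, 1.04, and Scn3a, 1.03). Of 24 calcium channel genes 11 were higher and 0 called, and of 4 HCN channels, which carry the pacemaker current, 1 was higher. The corresponding numbers in Ob vs. C were 2 sodium channel genes lower and 0 calcium and HCN channel genes at that p (1.4% of all genes lower), none called. In Ob + RSV vs. Ob, 1 sodium channel gene was higher at that p (1.66% of all genes) and 0 calcium and HCN channel genes, and in Ob + RSV vs. C there were 0 in each of the 3 lists.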

How the data were processed

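Hypothalamic poly(A) RNA of 12 libraries was sequenced in paired-end mode. The authors deposited raw read counts per gene, and per the study's methods and the submitters' processing notes they used HISAT2 v2.0.5, featureCounts v1.5.0-p3 and GRCm39, and DESeq2 v1.20.0 for DEGs. For strand setting, annotation release and multi-mapped reads values were not given in the sources used, and reads of overlapping genes could be split. Symbols were matched for 51486 of 78334 gene IDs (65.7%), which hold 98.1% of the counts, and protein-coding status, exon length and GC content came from a GENCODE annotation of GRCm38. Groups followed the labels.

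CPM were normalized by TMM. Tests were edgeR v4.0.16 quasi-likelihood tests in R v4.3.3 with Benjamini-Hochberg adjustment over all genes with at least 10 reads in the fit: 9 libraries and 33534 genes for C, Ob and Ob + RSV, and 12 libraries and 36164 genes for Ob + EAE vs. Ob. The fits left 6 and 7 residual degrees of freedom. A gene was called at an adjusted p under 0.05 with an absolute log2FC not under 1. Log2 CPM used a prior count of 2. Relations with markers used 100000 two-sided permutations. An exact permutation test of 3 against 3 libraries could not go below 0.1, so none was used for single genes. Alternatives were TMM against RLE and upper quartile scaling, filters on low counts, DESeq2 v1.42.0, other sets of libraries, a replicate block and, added after the data were seen, removal of the trend on length and GC content. The tests were checked on simulated data.

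The members and gene lists were chosen with earlier results of these data known. Named genes were a list fixed by function, the 5 smallest unadjusted p per comparison among genes with a mean of at least 10 reads, called genes, the top 3 by RPKM per class, the 5 widest ranges and genes related to marker lists. Ob + CUR entered no test. Values of some genes are not reported here, though they entered the fits and counts.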

Additional observations from a re-analysis of the deposited data

How the results depend on the processing

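No channel gene was called in Ob vs. C, Ob + RSV vs. Ob or Ob + RSV vs. C under any setting tried. Counts at an unadjusted p under 0.05 moved more, and those over all genes moved too. With filterByExpr, 220 of 21557 genes were higher and 277 lower at that p in Ob vs. C, against 453 and 469 of 33534 in the main fit. Calls over all genes in Ob + EAE vs. Ob fell from 665 to 77 with that filter. They fell to 1 without the 3 libraries with fewest genes detected and to 62 with the trend on length and GC content removed. In Ob vs. C the count of 4 became 2 with the filterByExpr filter, 8 with 2 groups only in the fit, 7 with 12 libraries, 0 without the 3 libraries with fewest genes detected and 0 to 14 when each library was left out in turn. In Ob + RSV vs. Ob the count of 8 became 4 with filterByExpr, 4 without those 3 libraries and 2 to 11 with each library left out. In Ob + RSV vs. C the count of 2 became 5 with 12 libraries, 5 with the trend on length and GC content removed (chosen after seeing the data) and 1 to 5 with each library left out. In Ob + EAE vs. Ob the 4 calls became 0 with filterByExpr, 0 without the 3 libraries, 0 with the trend removed, 7 with no minimum on log2FC, 3 by DESeq2, where Kcnh5 had no adjusted p, and 0 to 6 with each library left out. Without 1 of the 2 Ob + EAE libraries, the spread came from the other groups and the lone library was assumed to vary like them. The 23 genes at an unadjusted p under 0.05 became 11 with the trend removed and 10 to 26 with each library left out. The cause was not tested in any of these cases, except that fewer libraries or genes entered some fits.

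Labels share replicate numbers, but same-numbered libraries deviated together in only 4 of 9 pairs (correlations of -0.03 to 0.33, over 0.1 in 4), and 7 of 9 libraries correlated best with their own number, as a hint from the data. With a replicate block, channel genes at an unadjusted p under 0.05 numbered 8, 10, 4 and 31 in the 4 comparisons in the order above, with 0, 0, 0 and 6 calls. Over all genes, calls with the block numbered 50, 10, 35 and 1417. Genes higher at that p numbered 748, 567, 309 and 3412, and those lower 946, 849, 632 and 2889.

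The correlation of Kcnj10 with astrocyte markers was 0.57 without its 2 farthest libraries. That of Kcnj13 with choroid plexus markers was 0.61 without its 2 farthest libraries and 0.62 within groups (permutation p = 0.0417, adjusted 0.125), where rho was 0.45. Below 0 were that of Kcnk13 with microglial markers within groups (-0.049) and that of Kcnip2 with striatal markers without its 2 farthest libraries (-0.18). Kcnj13 and Kcne3 had 38 and 34 reads in all, too few for their levels to be compared closely between libraries.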
